A study of Mus musculus with 12 samples.

Results

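Messenger RNA of the matrix-degrading metalloproteinases, of the related ADAM, ADAMTS and ADAMTS-like families and of the tissue inhibitors of metalloproteinases was followed in mouse hearts with and without pressure overload, in the presence and absence of the apelin gene. The members are the genes whose symbol begins with Mmp, Timp, Adam, Adamts or Adamtsl followed directly by a digit, each represented by its probe set of highest mean over the arrays. They were 70 of the 18193 genes with a probe set of their own: 18 Mmp, 4 Timp, 28 Adam, 15 Adamts and 5 Adamtsl genes. Total heart RNA was hybridised to Affymetrix arrays, with 12 arrays in 4 groups of 3: wild-type mice after a sham operation, wild-type mice after aortic banding, knockout (KO) mice after a sham operation and knockout mice after aortic banding. Banding narrows the aorta, so that the left ventricle ejects against a raised pressure, and apelin is a peptide that acts on heart and vessels. The series compares apelin-knockout with wild-type hearts under both operations. The titles call the arrays of a group biological replicates; the age and strain of the mice, the time after banding, the heart chamber taken and how the knockout allele was made are not stated in the labels.

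The Mmp genes encode zinc-dependent endopeptidases that cut collagens, gelatins and other matrix proteins, and the Timp proteins are their endogenous inhibitors. ADAM proteins are membrane-anchored relatives, several of which release growth factors and receptors from the cell surface, while some have no protease activity. ADAMTS proteins are secreted proteases that process procollagen, cleave proteoglycans such as versican or act on other matrix proteins, and the ADAMTS-like proteins share their non-catalytic domains and associate with microfibrils. In the heart these systems are known for the turnover of interstitial matrix during remodelling under load.

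All values are linear intensities on the scale of the deposited table, and differences are on the log2(intensity + 16) scale with the standard error (SE) of a limma fit. Passing means an adjusted p under 0.05, by the Benjamini-Hochberg method over the 10916 genes tested, which are the upper 60% by mean. The filter kept 33 members: 6 Mmp, 4 Timp, 10 Adam, 9 Adamts and 4 Adamtsl genes. Apln itself read 212 to 333 in wild-type sham, 205 to 255 in wild-type banded and 63.7 to 111 in knockout sham arrays. In the knockout banded group it read 271, 123 and 160.1 in replicates 1, 2 and 3, so that the array labelled knockout banded 1 lay within the wild-type range for the targeted gene. That array also held airway transcripts, with a summed intensity of 1607 over 4 airway and lung markers against 115 to 185 in the other 11 arrays. The 2 adipocyte markers found, of 4 listed, summed to 402 in that array and to 344 in wild-type banded 1. In the remaining arrays they summed to 5.94 to 104.8. The counts of members that passed are given with and without the array labelled knockout banded 1, because of its Apln and airway values.

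Banding in knockout hearts changed 7 of the 33 members tested, 4 upward and 3 downward. The 4 that rose were the microfibril-associated genes Adamtsl2 and Adamtsl5, the membrane-anchored collagenase Mmp14 and the sheddase Adam9. The 3 that fell were Adam11, the procollagen-processing Adamts3 and Adamts7, a protease of cartilage oligomeric matrix protein. Among all 10916 genes 2.05% passed upward and 1.76% downward, 3.81% in all, against 21.2% of the members tested. Counting unadjusted p under 0.05, 15 of the 33 members (45.5%) stood against a background of 21.1% of genes. The median difference of the 33 members was 0.16, with -0.02 over all genes, and 19 of the 33 were above 0, as were 46.9% of all genes.

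Adamtsl2 encodes a secreted glycoprotein without protease activity that binds fibrillin and a latent TGF-beta binding protein. It read 104, 129 and 94.0 in the knockout sham arrays and 204, 436 and 399 in the knockout banded arrays, in order of replicate. All 3 banded arrays lay above all shams, with the array labelled knockout banded 1 the lowest of the 3. The difference was 1.48 (SE 0.24, adjusted p = 0.014), 2.78-fold on this scale. The wild-type arrays did not overlap either, at 114, 92.1 and 127 in sham and 193, 180.3 and 251 in banded hearts. Their difference of 0.81 (SE 0.24, adjusted p = 0.918) did not pass. Averaged over genotypes Adamtsl2 rose by 1.14 (SE 0.17, adjusted p = 0.0133), and its 6 banded arrays all lay above its 6 sham arrays.

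Mmp14 encodes a membrane-type metalloproteinase that cuts fibrillar collagen and, together with Timp2, activates the gelatinase encoded by Mmp2. Its intensity was 111, 93.9 and 142 in knockout sham and 183, 333 and 267 in knockout banded arrays. The groups were separate, and the rise was 1.05 (SE 0.23, adjusted p = 0.0306). Wild-type arrays overlapped fully, at 208, 215 and 143 in sham and 202, 133 and 205 in banded hearts, with a difference of -0.07 (SE 0.23, adjusted p = 0.994). Every knockout sham lay below every wild-type sham, with means of 115 ± 24.2 and 189 ± 39.6 (SD, n = 3). A further Mmp14 probe set of lower mean gave 1.21 in knockouts and 0.13 in wild type, and the third gave 0.28 and -0.11.

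Adam9, whose product releases membrane-bound ligands and receptors, read 536, 615 and 611 in knockout sham and 698, 1177 and 956 in knockout banded hearts, a rise of 0.64 (SE 0.16, adjusted p = 0.0477). Its wild-type groups overlapped, at 640.5 ± 66.0 in sham and 671 ± 79.2 under banding (SD, n = 3). Of the 7 calls that of Adam9 was the nearest to the threshold. It held in 9 of 25 alternative settings and in 1 of 12 fits with a single array left out, the 1 without the array labelled knockout banded 1. Adamtsl5, encoding a fibrillin-binding protein, read 332, 249 and 345 in knockout sham and 419.6, 482 and 519.9 in knockout banded arrays. The rise was 0.60 (SE 0.12, adjusted p = 0.0241), from the lowest to the highest mean of the 4 groups. Wild-type arrays read 343 to 387 in sham and 356 to 377 in banded hearts, the banded range lying inside the sham range. Its other probe set gave 0.50 in knockouts and 0.23 in wild type.

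Adam11 belongs to the ADAM proteins that lack an active protease site and are known from nervous tissue. It read 102, 109 and 101 in knockout sham and 34.0, 57.6 and 40.6 in knockout banded arrays, a difference of -1.02 (SE 0.19, adjusted p = 0.0206). In this gene the array labelled knockout banded 1 was the lowest of the 12. Wild-type arrays spanned 67.7 to 100.2 in sham and 62.1 to 97.8 in banded hearts, and its second probe set gave -0.71 in knockouts. Adam22, a relative of the same kind, read 149, 219 and 155 in knockout sham and 116, 129 and 107 in knockout banded hearts. These groups were separate too, but the difference of -0.49 (SE 0.16, adjusted p = 0.105) did not pass.

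Adamts3 encodes a protease that removes the amino-terminal propeptide of procollagen and also processes the lymphatic growth factor VEGF-C. Its values were 83.8, 56.8 and 101 in knockout sham and 43.1, 18.4 and 22.2 in knockout banded arrays, a difference of -1.15 (SE 0.22, adjusted p = 0.0213). Its second probe set, of lower mean, gave -0.07 in knockouts, and the call rests on the brighter of the 2 probe sets. Adamts7 read 102, 97.8 and 122 in knockout sham and 65.7, 42.9 and 16.7 in knockout banded arrays, with -1.18 (SE 0.27, adjusted p = 0.0326). Wild-type hearts were separated in the same direction, at 98.8, 111 and 111 in sham and 49.6, 79.8 and 68.7 in banded hearts, where -0.60 (SE 0.27, adjusted p = 0.921) did not pass. Averaged over genotypes Adamts7 fell by 0.89 (SE 0.19, adjusted p = 0.0386), with all 6 banded arrays below all 6 shams. Adamts7 has a single probe set, as do Adamtsl2 and Adam9.

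**Figure D1:**
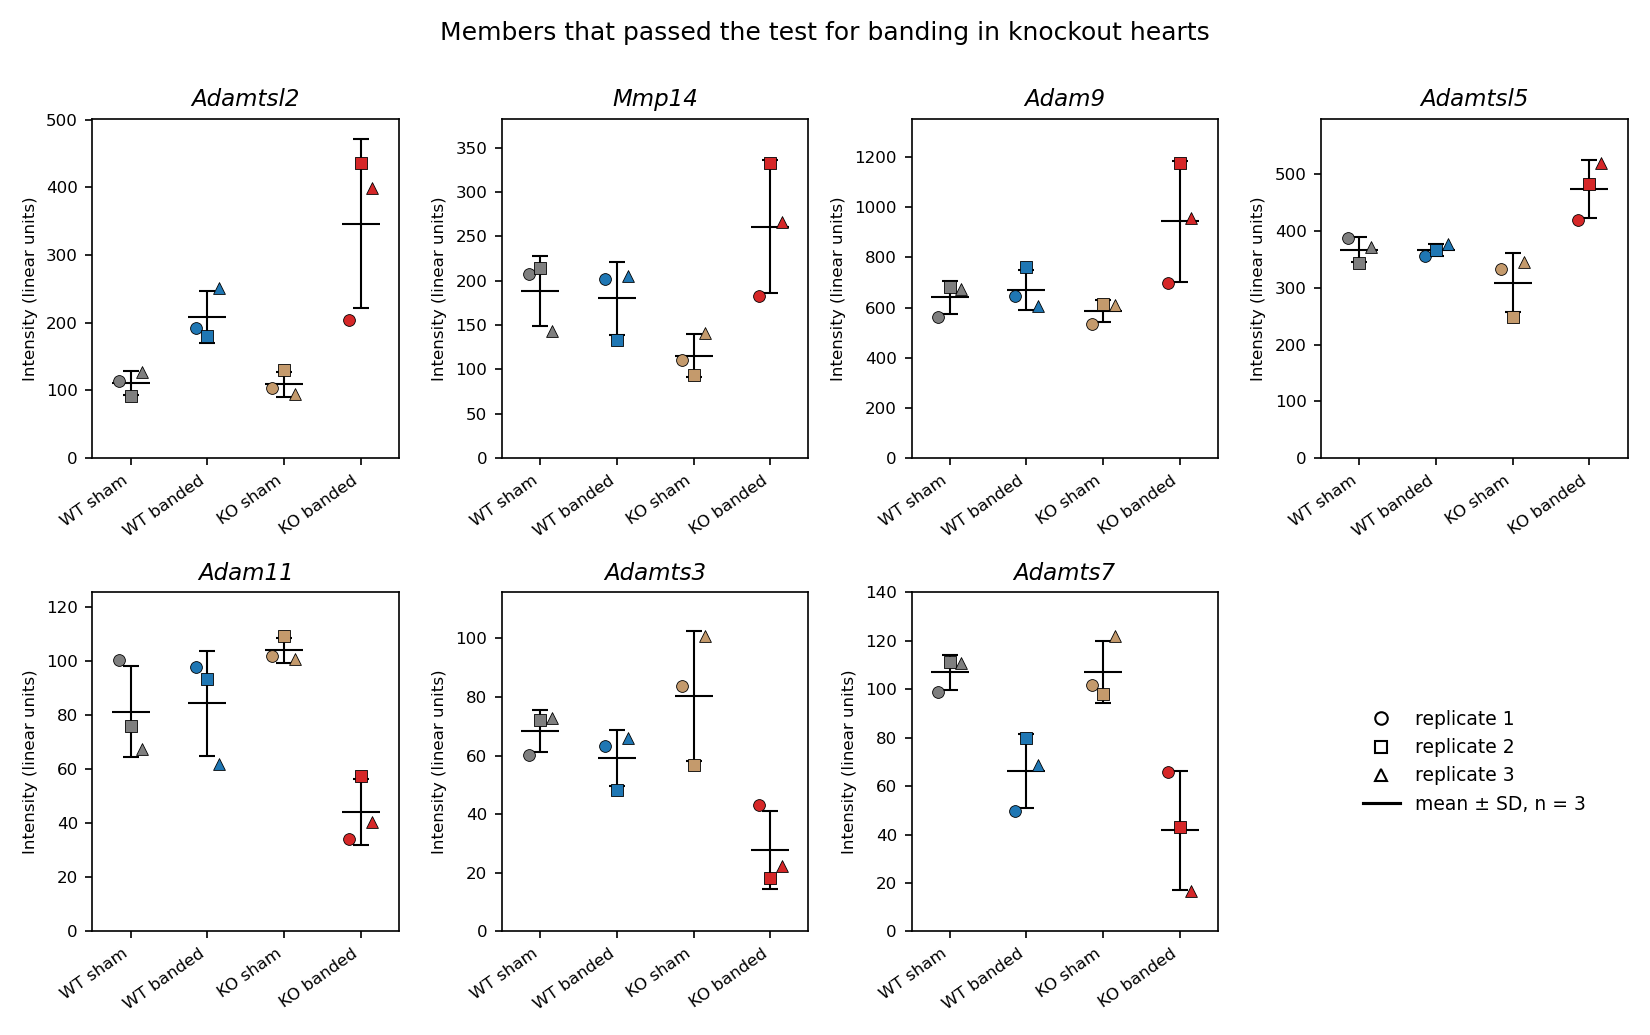
Linear intensity (vertical axes, from 0) of the 7 members that passed for banding in knockout hearts, in each of the 12 arrays by group, with markers for replicates 1 to 3 and bars for the mean and SD (n = 3). In Adamtsl2, Mmp14, Adam9 and Adamtsl5 the circle of knockout banded replicate 1 lies below the other banded knockouts, whereas in Adam11 it is the lowest value of all 12 arrays.

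The 250 bases before the annotated starts of 4 members are shown because they differ in the core promoter letters that were sought. Adamtsl2 and Mmp14 were among the rises and Adamts3 among the falls, and Mmp3 stands for the cluster of Mmp genes on chromosome 9. Sequences are from RefSeq (GRCm38.p6), read 5′ to 3′ on the gene's strand. For Mmp14 and Mmp3 the start used is the outer end of the annotated gene. For Adamtsl2 and Adamts3 it lies 43 and 334 bases inside the annotated gene. The last 43 bases of the Adamtsl2 window and the whole of the Adamts3 window are therefore within the annotated gene. Capitals mark the AP-1 site TGACTCA and the GC box GGGCGG, both sought on either strand, and the TATA box TATAAA, sought on the gene's strand. A match on the opposite strand is capitalised as it reads here.
Adamtsl2, chr2:27079129-27079378 (plus strand): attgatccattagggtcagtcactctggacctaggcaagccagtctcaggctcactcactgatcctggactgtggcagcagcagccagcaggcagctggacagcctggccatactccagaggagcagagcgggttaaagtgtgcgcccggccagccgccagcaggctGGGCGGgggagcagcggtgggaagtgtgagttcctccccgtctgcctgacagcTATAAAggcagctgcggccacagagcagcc
Mmp14, chr14:54431348-54431597 (plus strand): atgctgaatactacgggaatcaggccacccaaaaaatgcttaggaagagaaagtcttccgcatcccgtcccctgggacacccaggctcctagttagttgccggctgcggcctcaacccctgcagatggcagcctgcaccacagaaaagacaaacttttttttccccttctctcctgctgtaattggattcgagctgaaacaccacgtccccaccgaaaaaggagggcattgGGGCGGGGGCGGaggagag
Adamts3, chr5:89883335-89883584 (minus strand): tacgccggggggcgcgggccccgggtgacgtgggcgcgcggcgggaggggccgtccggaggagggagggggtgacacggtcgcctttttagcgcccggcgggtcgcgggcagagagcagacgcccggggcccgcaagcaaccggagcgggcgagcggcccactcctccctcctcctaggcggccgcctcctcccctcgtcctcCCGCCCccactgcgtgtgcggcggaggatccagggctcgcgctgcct
Mmp3, chr9:7445572-7445821 (plus strand): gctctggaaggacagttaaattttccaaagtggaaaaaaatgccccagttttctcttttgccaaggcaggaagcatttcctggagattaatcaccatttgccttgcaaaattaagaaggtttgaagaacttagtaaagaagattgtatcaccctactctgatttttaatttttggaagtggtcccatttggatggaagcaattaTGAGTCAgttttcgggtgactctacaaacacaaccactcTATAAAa
Adamtsl2 has a TATA box 30 bases and a GC box 83 bases before its start. Mmp14 has GC boxes at 19 and 13 bases, Adamts3 has a single GC box at 47 bases, and neither holds the TATA letters in this window. Mmp3 has the AP-1 letters at 46 bases and TATAAA at 7 bases before its annotated start. RefSeq windows were found for 41 of the 70 members, with 46 starts. The AP-1 letters were in 17.39% of these windows and in 4.46% of the 32851 windows of all genes. They were found in 7 of 13 Mmp genes, namely Mmp1a, Mmp1b, Mmp3, Mmp7, Mmp10, Mmp12 and Mmp13, and in Adam19. Those 7 Mmp genes all lie in the cluster on chromosome 9, which spans 427 kb, as do the 7 Mmp genes with TATAAA. The GC box was in 41.3% of member windows against 32.74% of all, and TATAAA in 19.57% against 7.59%. A match describes letters only, and factor binding was not measured.

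The array labelled knockout banded 1 differed from its group in many members. It was the lowest of the 3 knockout banded arrays in 17 of the 33 members tested, and knockout banded 2 was the highest in 17. Over all genes tested, these arrays were the lowest and the highest of their group in 35.4% and 30.7%. The median SD of the members within the knockout banded group was 0.37 on the log2 scale, against 0.16 over all genes tested. In the other groups the members' median SD was 0.19 to 0.25, against 0.13 to 0.18 over all genes. Of the 33 members tested the widest in knockout banded hearts was Timp1, with an SD of 1.06 on that log2 scale.

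Without the array labelled knockout banded 1, 13 members passed for banding in knockouts, 9 upward and 4 downward, when 13.2% of all genes passed. The added rises were Timp1 with 1.63 (SE 0.19, adjusted p = 3.2e-04), Mmp3 with 1.24 (SE 0.33, adjusted p = 0.0275), Adam19 with 1.26 (SE 0.37, adjusted p = 0.043), Adamts1 with 1.03 (SE 0.28, adjusted p = 0.0306) and Adamts9 with 0.64 (SE 0.16, adjusted p = 0.0227). The added fall was Adamtsl4 with -0.43 (SE 0.10, adjusted p = 0.0143), and the 7 calls made with all arrays were kept. The calls also rested on other arrays of these groups. Without knockout banded 2 only Adam11 passed and without knockout banded 3 no member did, when 17 and 11 of all genes passed. Without knockout sham 1, 2 or 3 the members passing numbered 1, 2 and 0, when 88, 40 and 9 of all genes passed. With only the knockout arrays in the fit 1 member passed, Adam11, and with array weights 15 did, when 17.1% of all genes passed.

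**Figure D2:**
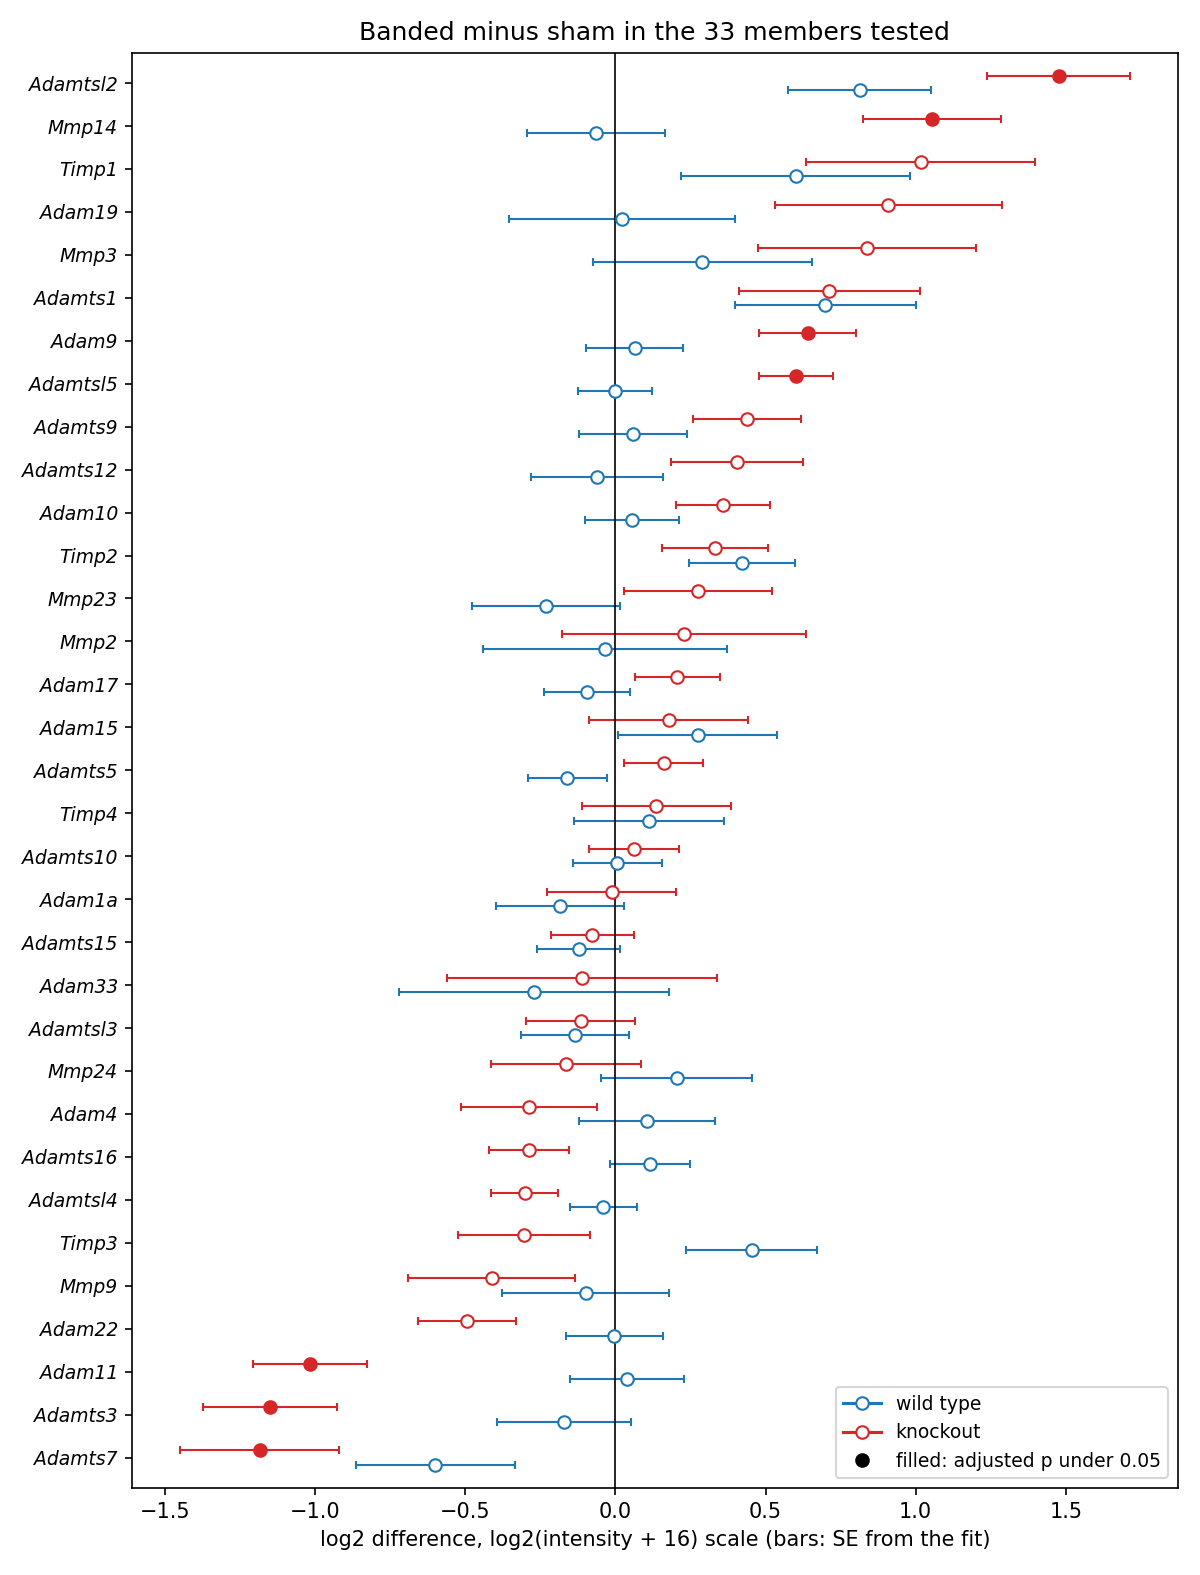
Banded minus sham difference (horizontal axis, log2(intensity + 16) scale, with SE bars) for each of the 33 members tested, in wild type and in knockout, with filled points for an adjusted p under 0.05. Adamtsl2 is at 1.48 and Adamts7 at -1.18 in knockouts, and all wild-type points are open.

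The gelatinase genes did not pass in either genotype. Mmp2, encoding the constitutive gelatinase of fibroblasts, read 322, 636 and 612 in wild-type sham and 336, 423 and 821 in wild-type banded hearts. In knockouts it read 456, 799 and 363 in sham and 400.0, 1039 and 519.6 in banded hearts. Each group spanned a wide range and all groups overlapped, with differences of -0.03 (SE 0.41, adjusted p = 0.996) in wild type and 0.23 (SE 0.41, adjusted p = 0.796) in knockouts. Its other probe set, of nearly the same mean, gave 0.24 and 0.60. Mmp9, the inducible gelatinase carried by neutrophils and macrophages, read 66.4, 85.9 and 72.3 in wild-type sham and 61.0, 122 and 40.8 in wild-type banded hearts. Knockout hearts read 80.6, 50.9 and 65.8 in sham and 34.8, 42.2 and 60.1 in banded arrays, a difference of -0.41 (SE 0.28, adjusted p = 0.426). The highest Mmp9 value and the highest Mmp8 value, 122 and 79.7, were both in wild-type banded 2. The summed intensity of 5 of 6 neutrophil markers ranged from 151 to 2015 in the wild-type banded group and from 136 to 350.2 in knockout banded hearts. The weakest marker of that list, Camp, had a mean of 3.14, and the part of neutrophils in the Mmp8 and Mmp9 values was not tested.

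Mmp3 encodes stromelysin-1, which degrades proteoglycans and activates other metalloproteinases. It read 34.9, 44.6 and 39.97 in knockout sham and 40.8, 107 and 125 in knockout banded hearts. The array labelled knockout banded 1 lay within the sham range, and the difference of 0.84 (SE 0.36, adjusted p = 0.208) did not pass. In wild type the shams were tight, at 63.5, 65.2 and 60.7, and the banded hearts scattered, at 90.3, 141 and 38.0. Every knockout sham was below every wild-type sham for Mmp3. The stromelysin-like Mmp11 was just below the filter, at 61.0 ± 4.04 and 41.4 ± 6.26 in wild-type and 52.0 ± 6.36 and 32.3 ± 5.99 in knockout sham and banded arrays (SD, n = 3). Its banded arrays lay below the shams in each genotype. Among the genes tested 6.17% were separate downward in wild type and 14.4% in knockouts. When genes were taken by the mean of their probe sets, Mmp11 entered the test and passed downward for banding averaged over genotypes. With no filter it was at -0.46 (SE 0.12, adjusted p = 0.104) for that average and -0.50 (SE 0.16, adjusted p = 0.159) in knockouts, and passed in neither. The membrane-type Mmp24 and the type II transmembrane Mmp23 differed by -0.16 and 0.28 in knockouts. The other Mmp23 probe set, of lower mean, gave 1.06 in knockouts and 0.57 in wild type, and with the mean of its probe sets Mmp23 passed upward in knockouts.

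The remaining Mmp genes read low. The 4 collagenase genes Mmp1a, Mmp1b, Mmp8 and Mmp13, the macrophage elastase Mmp12, the enamel protease Mmp20 and the matrilysin Mmp7 were below the filter, as were Mmp10, Mmp11, Mmp16, Mmp17 and Mmp19. The highest single value among these was 127, in Mmp7 in wild-type sham 2. Mmp7 ranged over 10.96 to 127 in wild-type sham and 14.2 to 41.1 in wild-type banded hearts, and over 12.5 to 47.8 and 57.1 to 88.1 in the knockout groups. Mmp13, the main interstitial collagenase of the mouse, read 8.40 to 11.4 in wild-type sham and 4.87 to 12.03 in knockout banded hearts. Of the 9 Mmp members on chromosome 9 that lie within a single cluster, Mmp3 was the 1 that passed the filter.

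Timp1, the inhibitor gene that is induced in scarring tissue, read 71.3, 51.9 and 66.1 in knockout sham and 52.4, 229 and 225 in knockout banded hearts. Banded replicates 2 and 3 were the highest of the 12 arrays, whereas replicate 1 lay at the lower edge of the shams. With all arrays the difference was 1.02 (SE 0.38, adjusted p = 0.149) and did not pass. Wild-type banded hearts read 96.2, 128 and 129.6 against 80.5, 53.3 and 84.8 in sham, with every banded array above every sham and a difference of 0.60 (SE 0.38, adjusted p = 0.937). Without the array labelled knockout banded 1, Timp1 passed in knockouts, as given above, for banding averaged over genotypes with 1.11 (SE 0.13, adjusted p = 4.1e-04) and for knockout against wild type in banded hearts with 0.87 (SE 0.19, adjusted p = 0.0219).

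Timp2 and Timp3, the inhibitors of broad expression of which Timp3 is bound to the matrix, did not pass in either genotype. Timp2 read 909, 1028 and 1053 in wild-type sham and 1507, 1259 and 1261 in wild-type banded hearts. These did not overlap, with a difference of 0.42 (SE 0.18, adjusted p = 0.921), whereas knockout sham and banded hearts overlapped at 968 ± 214 and 1227 ± 289.8 (SD, n = 3). All 6 Timp2 probe sets were above 0 in both genotypes, at 0.13 to 0.43 in wild type and 0.04 to 0.33 in knockouts, and the lowest of each range came from a probe set with a mean of 3.78. Timp3 read 796, 851 and 1549 in wild-type sham and 1385, 1531 and 1289 in wild-type banded hearts. In knockouts it read 1273, 1551 and 1672 in sham and 1494, 1015 and 1151 in banded hearts. Its difference was 0.45 (SE 0.22, adjusted p = 0.921) in wild type and -0.30 (SE 0.22, adjusted p = 0.462) in knockouts, and all 4 of its probe sets were above 0 in wild type and below 0 in knockouts. The test of that difference between genotypes gave -0.76 (unadjusted p = 0.0303, limma adjusted p = 0.522), which did not pass. Timp4, the inhibitor known for its abundance in heart, was at 0.11 (SE 0.25, adjusted p = 0.993) in wild type and 0.14 (SE 0.25, adjusted p = 0.802) in knockouts, with overlapping arrays.

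**Figure D3:**
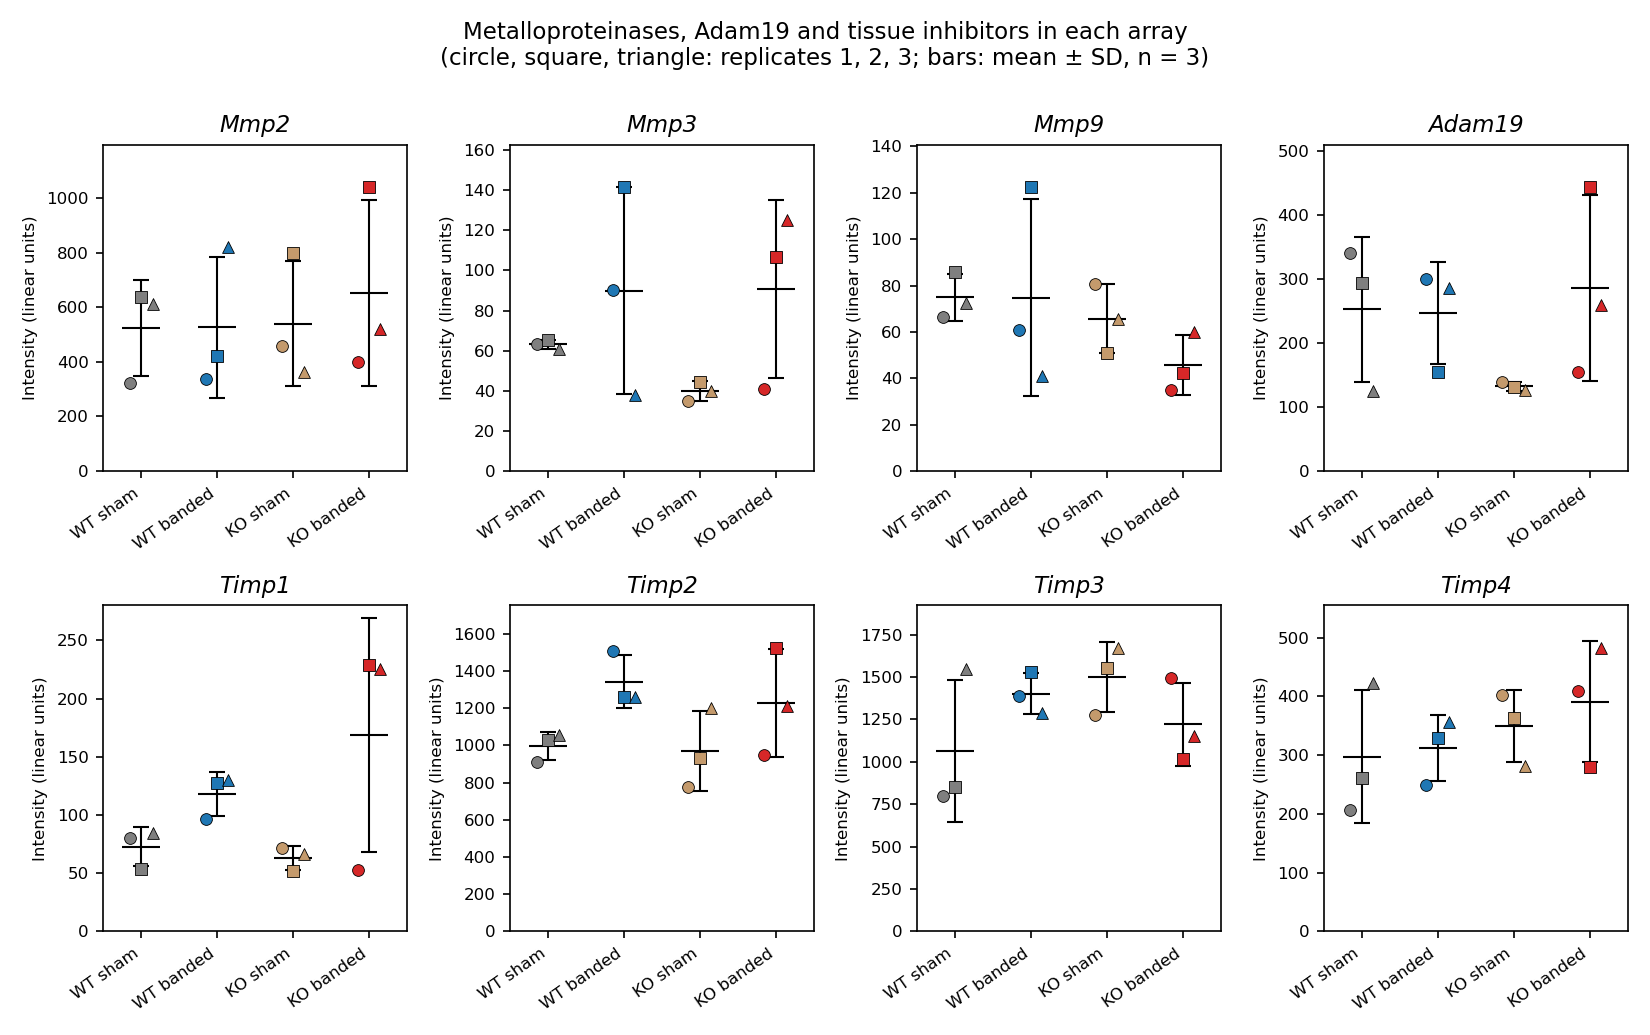
Linear intensity (vertical axes, from 0) of Mmp2, Mmp3, Mmp9, Adam19 and the 4 Timp genes in each of the 12 arrays by group, with markers for replicates 1 to 3 and bars for the mean and SD (n = 3). The knockout banded values of Timp1 are 52.4, 229 and 225, so that the circle of replicate 1 sits among the shams.

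Among the shedding ADAMs, Adam10 and Adam17, the main sheddases of Notch and of tumour necrosis factor, did not pass in either genotype. Adam10 read 574, 524 and 586 in knockout sham and 603, 819 and 764 in knockout banded arrays. These groups were separate, but the difference of 0.36 (SE 0.16, adjusted p = 0.214) did not pass, and in wild type it was 0.06. Adam17 read 245 to 314 in knockout sham and 259 to 390.4 in knockout banded hearts, a difference of 0.21 (SE 0.14, adjusted p = 0.435). Adam15 was at 0.18 (SE 0.26, adjusted p = 0.753) in knockouts and 0.27 in wild type. Adam19, a sheddase of neuregulin known from heart development, read 140.0, 132 and 126 in knockout sham and 155, 444 and 259.6 in knockout banded hearts. The groups did not overlap, and the difference was 0.91 (SE 0.38, adjusted p = 0.19), with 1.22 from its second probe set. Its wild-type arrays spread over 125 to 340.4 in sham and 155 to 300.0 in banded hearts, and 1 wild-type sham was as low as the knockout shams. Adam33 spread over 21.0 to 90.8 in wild-type sham and 19.7 to 109 in wild-type banded hearts. On the log2 scale its SD, 0.82 and 0.96, was the largest of the 33 members tested in both groups. Adam8, a sheddase of white blood cells, and Adam12 were below the filter. Adam8 read 47.5 to 64.1 in the 6 wild-type and 33.6 to 44.9 in the 6 knockout arrays, without overlap. By genotype over all arrays, 0 of the 33 members tested were separate upward and 0 downward. The share over all genes is not given here, so the separation of Adam8 has no background beside it. With no filter the knockout minus wild-type difference of Adam8 averaged over surgery was -0.32 (SE 0.11, adjusted p = 0.499) and did not pass. Adam12 read 43.8 ± 12.7 in knockout sham and 52.0 ± 26.4 in banded knockouts (SD, n = 3). The weaker of the 2 Adam12 probe sets, with a mean of 16.7, gave 0.97 in knockouts.

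None of the 4 ADAMTS genes tested that are known to cleave aggrecan or versican, Adamts1, Adamts5, Adamts9 and Adamts15, passed in either genotype. Adamts1 read 315, 262 and 259.7 in knockout sham and 293, 645 and 529 in knockout banded hearts. In wild type it read 248, 300.3 and 513 in sham and 422, 778 and 529 in banded hearts, so that the groups overlapped in both genotypes. The 2 genotypes gave nearly the same difference, 0.71 (SE 0.30, adjusted p = 0.196) and 0.70 (SE 0.30, adjusted p = 0.921), and the average of 0.71 (SE 0.21, adjusted p = 0.116) did not pass. Adamts9 read 171, 163 and 145 in knockout sham and 164, 297 and 221 in knockout banded arrays, with 0.44 (SE 0.18, adjusted p = 0.183). Adamts5 was at 0.16 (SE 0.13, adjusted p = 0.526) in knockouts and -0.16 in wild type. A second Adamts5 probe set, which has the higher mean of linear values, gave 0.49 and -0.21. Adamts15 was at -0.08 and -0.12. Adamts4 and Adamts8 were below the filter. Adamts4 read 26.7, 11.1 and 11.6 in knockout sham and 39.8, 89.0 and 70.9 in knockout banded arrays, and Adamts8 read 21.3, 33.04 and 28.7 in sham and 36.3, 82.5 and 85.5 in banded hearts. For both, all banded knockouts were above all knockout shams, as in 12.2% of the genes tested, and neither passed when the filter was removed. The second probe set of Adamts4, with a mean of 10.3, gave -0.31.

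Other ADAMTS and ADAMTS-like genes gave smaller differences. Adamts12, the relative of Adamts7, was at 0.41 (SE 0.22, adjusted p = 0.31) in knockouts, opposite in sign to Adamts7. Adamts10, known for its part in microfibrils, was at 0.06 in knockouts and 0.01 in wild type, and Adamts16 at -0.29 and 0.12. Adamtsl4, known from the fibres that suspend the lens, read 834, 929 and 879 in knockout sham and 848, 659.9 and 641 in knockout banded hearts. Replicate 1 of the banded group lay within the shams, and the difference of -0.30 (SE 0.11, adjusted p = 0.146) did not pass. Adamtsl3 was at -0.12 and -0.13.

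In wild-type hearts no member passed for banding, and neither did any of the 10916 genes (0%). By limma's unadjusted p under 0.05, 4 of 33 members (12.1%) stood out, Adamtsl2, Timp2, Adamts1 and Adamts7, against 4.89% of all genes. Banded arrays lay wholly above sham arrays in Adamtsl2, Timp1 and Timp2, 3 of 33 members against 3.76% of genes, and wholly below in Adamts7, 1 of 33 against 6.17%. The median of the members was 0.01. All 4 Timp genes were above 0, as were 44.2% of all genes, with a median of 0.44, and the 6 Mmp genes had a median of -0.05. The same medians were 0.24 for Timp and 0.25 for Mmp genes in knockouts. With all arrays no Timp gene passed in either genotype. In knockouts, arrays were separate upward in 6 members, Adam9, Adam10, Adam19, Adamtsl2, Adamtsl5 and Mmp14, against 12.2% of genes. They were separate downward in 4, Adam11, Adam22, Adamts3 and Adamts7, against 14.4%.

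Averaged over genotypes, 1 member rose and 1 fell, Adamtsl2 and Adamts7, when 0.934% of genes passed upward and 0.669% downward, 1.60% in all. The same 2 members were the only ones whose 6 banded arrays were separate from the 6 shams, against 0.568% of genes upward and 0.751% downward. The next smallest p-values belonged to Adamts3 with -0.66 (SE 0.16, adjusted p = 0.0588) and Adam11 with -0.49 (SE 0.13, adjusted p = 0.0905). The call of Adamts7 was lost with 11 of the 12 arrays left out in turn, and it was kept without the array labelled knockout banded 1. The call of Adamtsl2 was lost without knockout sham 3 alone. Without the array labelled knockout banded 1, 11 members passed for this average, among them Timp2 with 0.46 (SE 0.11, adjusted p = 0.0243) and Adamts1 with 0.87 (SE 0.19, adjusted p = 0.0131), when 9.12% of genes passed.

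Knockout and wild-type hearts did not differ in any member by the adjusted test, either in sham or in banded hearts, and no gene of the table passed either. In sham hearts 6 of 33 members had an unadjusted p under 0.05 in limma, against 5.22% of genes. Mmp14 was lower in every knockout sham than in every wild-type sham, with -0.64 (SE 0.23, adjusted p = 0.93), and so was Adamts12 with -0.50 (SE 0.22, adjusted p = 0.93). Adamts5 (-0.29) and Adamts15 (-0.31) were below 0, and Timp3 (0.54) and Adamts16 (0.30) above 0. Arrays were separate upward in 3 members, Adam11, Adamts16 and Adamtsl4, against 5.50% of genes, and downward in 4, Mmp3, Mmp14, Adamts9 and Adamts12, against 5.32%. Of the 33 members 11 were above 0, against 50.7% of genes, with a median of -0.12.

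In banded hearts 7 of 33 members had an unadjusted p under 0.05, against 14.6% of genes. Adam11, with -0.74 (SE 0.19, adjusted p = 0.148), and Adamts3, with -0.81 (SE 0.22, adjusted p = 0.163), were lower in every knockout array. Adamtsl5 was higher in every knockout array, with 0.35 (SE 0.12, adjusted p = 0.227). Arrays were separate upward in that 1 member, against 10.1% of genes, and downward in 5, Adam11, Adam22, Adamts3, Adamts15 and Mmp24, against 8.95%. The other members under that p were Adam9 (0.46), Adamtsl2 (0.64), Adam22 (-0.42) and Adamts7 (-0.59). Without the array labelled knockout banded 1, 5 members passed here: Adamtsl2 with 0.96 (SE 0.17, adjusted p = 0.0085), Adam9 with 0.65 (SE 0.13, adjusted p = 0.0153) and Timp1 upward, and Adamts3 with -1.05 (SE 0.21, adjusted p = 0.0143) and Adamts7 with -0.89 (SE 0.24, adjusted p = 0.0477) downward. In that fit 6.11% of genes passed. Averaged over surgery, no member passed, and Adamts15, with -0.29 (SE 0.10, adjusted p = 0.398), had the smallest p.

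**Figure D4:**
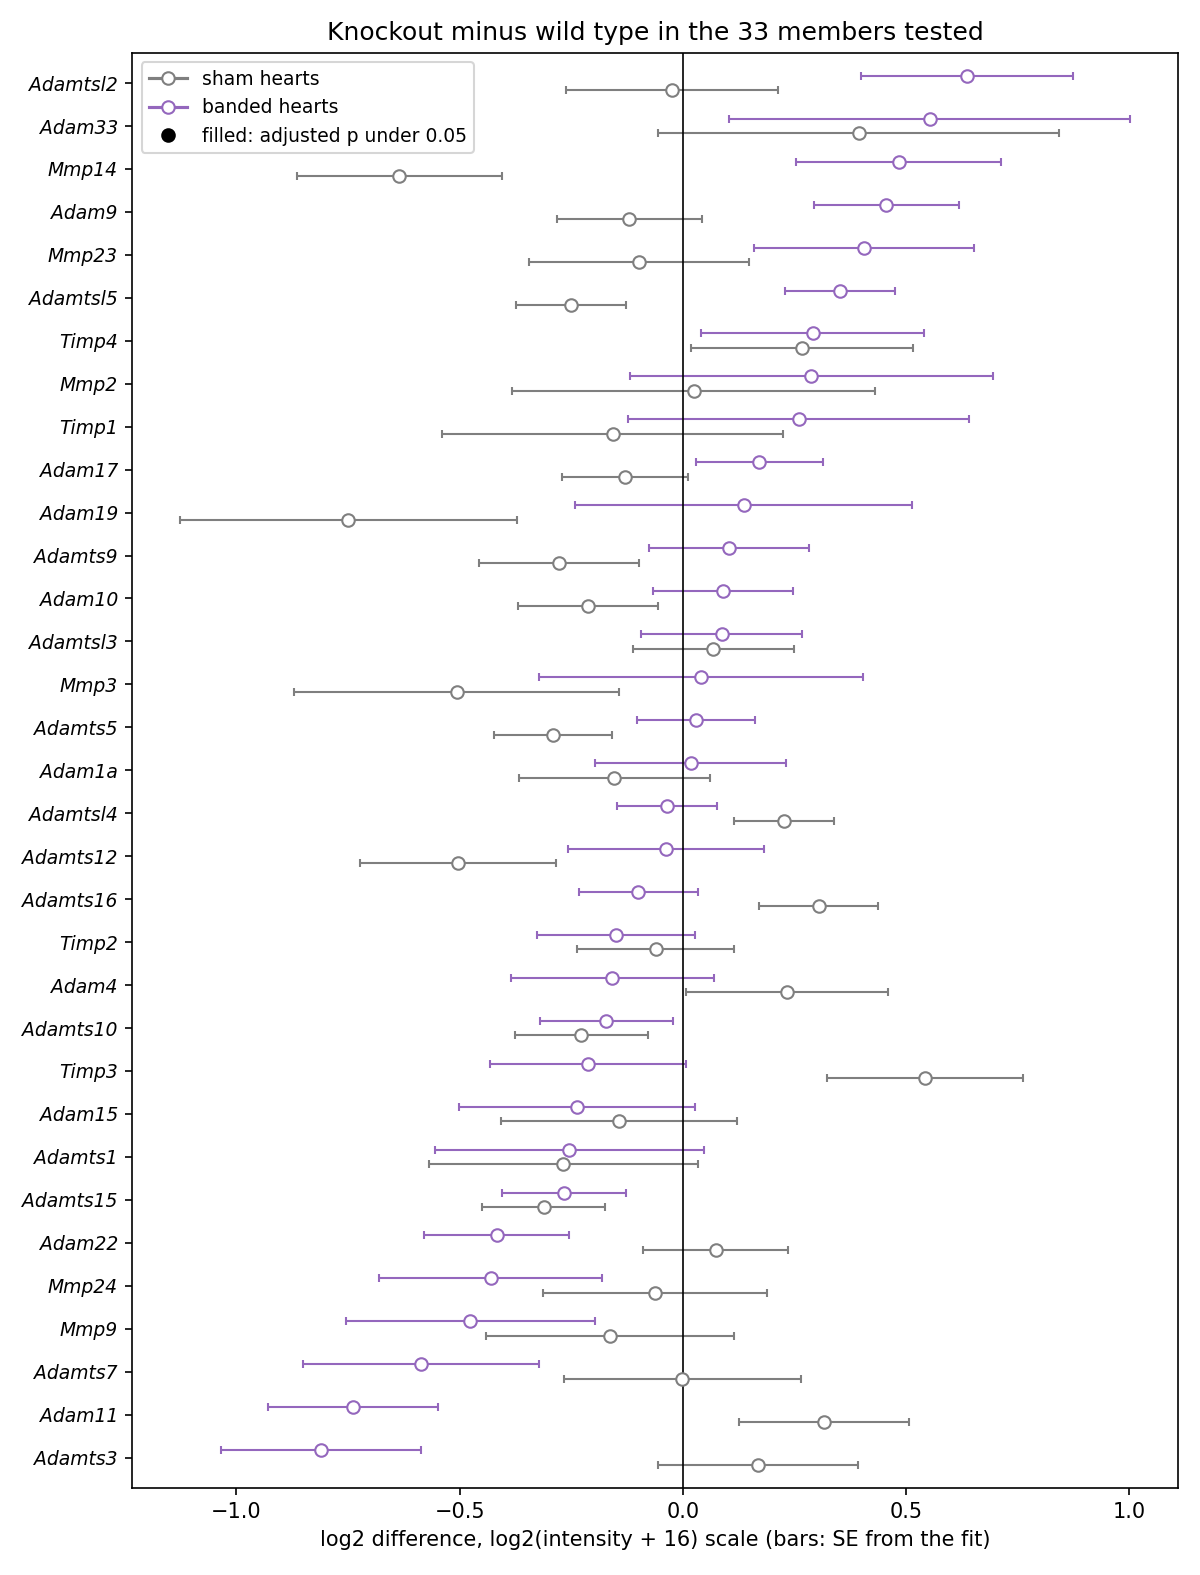
Knockout minus wild-type difference (horizontal axis, log2(intensity + 16) scale, with SE bars) for each of the 33 members tested, in sham and in banded hearts. All points are open because no adjusted p was under 0.05, and Mmp14 is at -0.64 in sham and 0.48 in banded hearts.

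The difference between the banding effects of the 2 genotypes was tested directly, as the knockout effect minus the wild-type effect. No member passed, nor did any gene, and 6 of 33 members had an unadjusted p under 0.05 in limma, against 9.11% of genes. These were Adam11 at -1.06 (SE 0.27, adjusted p = 0.424), Adamtsl5 at 0.60 (SE 0.18, adjusted p = 0.442), Mmp14 at 1.12 (SE 0.33, adjusted p = 0.442), Adamts3 at -0.98, Adam9 at 0.58 and Timp3 at -0.76. For Adamtsl2 it was 0.66 (SE 0.34, adjusted p = 0.568), and for Adamts7 -0.59 (SE 0.38, adjusted p = 0.652). Without the array labelled knockout banded 1, Mmp14 passed with 1.34 (SE 0.30, adjusted p = 0.0445), when 1.91% of genes did. The genes that passed in knockouts and not in wild type are therefore not shown to differ between genotypes when all arrays are used.

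The other genes of matrix proteolysis were taken as a list of 28 genes of the plasminogen system, convertases, procollagen C-proteinases, cathepsins and related proteins, of which 19 were tested. For banding in knockouts 2 rose, 1 fell and 16 did not pass, with a median of 0.16, when 3.81% of all genes passed. Plat, encoding tissue plasminogen activator, rose from 132 ± 2.75 in the shams to 288 ± 64.7 under banding (SD, n = 3), with 1.02 (SE 0.16, adjusted p = 0.0128). Its knockout shams, at 129 to 134, were below the wild-type shams at 202 to 247. Pcolce, an enhancer of procollagen C-proteinase, rose with 0.88 (SE 0.21, adjusted p = 0.0431). Htra1, a secreted serine protease, fell from 1225 ± 156 to 786 ± 54.1 (SD, n = 3), with -0.62 (SE 0.12, adjusted p = 0.0218). Reck, a membrane inhibitor of metalloproteinases, was at 0.50 (SE 0.15, adjusted p = 0.0825), and the collagen-degrading cathepsin gene Ctsk at 0.85 (SE 0.26, adjusted p = 0.0859). In wild type 0 of the 19 passed, when 0% of all genes did. For the average over genotypes 0 passed too, when 1.60% of all genes did. Without the array labelled knockout banded 1, 6 rose and 1 fell in knockouts, with a median of 0.23, when 13.2% of all genes passed. In that fit Plat was at 1.21 (SE 0.13, adjusted p = 2.0e-04), Pcolce at 1.21 (SE 0.12, adjusted p = 8.6e-05) and Htra1 at -0.57 (SE 0.14, adjusted p = 0.0177), and Reck, Pcolce2, Ctsk and Ctss also rose.

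Substrates of these enzymes were listed as 17 genes, of which 13 were tested. For banding in knockouts 6 rose, 0 fell and 7 did not pass, when 3.81% of all genes passed. The median was 1.18, against -0.02 over all genes. Vcan, encoding the versican core protein cut by several ADAMTS proteases, rose from 78.4 ± 3.42 to 244 ± 112 (SD, n = 3), with 1.35 (SE 0.26, adjusted p = 0.0213). Eln, encoding elastin, rose with 1.62 (SE 0.40, adjusted p = 0.0443), and Hbegf, a growth factor shed by ADAMs, with 1.54 (SE 0.34, adjusted p = 0.0314). Bgn, Col1a1 and Col3a1 rose by 1.14, 1.18 and 1.47. Averaged over genotypes 5 of the 13 rose, those 6 without Eln, when 1.60% of all genes passed. In wild type 0 passed, with a median of 0.50, when 0% of all genes did. With the array labelled knockout banded 1 left out, 9 rose and 0 fell in knockouts, with a median of 1.49. These were the same 6 genes with Comp, Col1a2 and Fn1, when 13.2% of all genes passed. The differences in that fit were 1.76 for Vcan, 2.25 for Eln, 2.06 for Hbegf, 1.49 for Bgn, 1.47 for Col1a1 and 1.90 for Col3a1. Several of these genes were already known to rise in these hearts when they were listed, so their counts and medians are descriptive and test nothing.

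Markers of cell types were read beside the members. The summed intensity of the 5 cardiomyocyte markers was 39256 to 40639 in knockout banded and 49334 to 53714 in knockout sham arrays, without overlap. Of the 5, Ryr2 fell for banding in knockouts, when 3.81% of all genes passed. The 8 fibroblast markers summed to 14970.2 to 18036 in knockout banded and 15050.1 to 17787 in knockout sham hearts, and none of the 8 passed. The 6 endothelial markers summed to 3042 to 3378 in knockout banded and 2701 to 2935 in knockout sham hearts, without overlap, and none passed. The 6 macrophage markers summed to 1611 to 2225 in knockout banded and 1621 to 1849 in knockout sham hearts. The 4 atrial cardiomyocyte markers varied widely within groups, summing to 4083 to 30337 in wild-type sham, 6141 to 34016 in wild-type banded, 5986 to 26197 in knockout sham and 12412 to 16252 in knockout banded hearts. Their median difference for banding in knockouts was 0.60, or 0.28 without the array labelled knockout banded 1, and 0 of the 4 passed in either fit. Without that array Ryr2 still fell, Vim of the fibroblast list and Pecam1 of the endothelial list rose, and the other markers of these lists did not pass. In that fit 13.2% of all genes passed. In RNA of mixed heart tissue a change in the number of cells of a type and a change of RNA per cell cannot be told apart, and the part of these markers in the members' differences was not tested.

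The 37 members below the filter had means of 2.12 to 48.8 over the 12 arrays. They include Adam2, Adam3, Adam5, Adam7, Adam18, Adam24, Adam25, Adam26a, Adam32 and Adam34, which are known mainly from testis or epididymis. Among these listed genes the highest group mean was 20.9. Other Adam genes read higher. Adam21 and Adam1b, also below the filter, had group means of up to 21.8 and 49.2. Adam4 and Adam1a passed the filter, with means of 156 and 48.2 over the 12 arrays. The testis markers Prm1, Prm2 and Tnp1 summed to 36.3 to 103 in the 12 arrays. With no filter all 70 members entered the test, and 4 passed for banding in knockouts, Adam11, Adamts3, Adamtsl2 and Adamtsl5. How many of all 18193 genes passed in that fit is given in the last section.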

How the data were processed

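The values deposited by the authors are linear probe set intensities of 12 arrays. The sources used here do not give the software behind them. Each array had a mean of 150 with 2% of values trimmed at each end, and no further scaling was applied. The precision is limited by the number of arrays. Of 45101 probe sets, 64 controls were left out. Genes were named from the platform annotation, and all 70 members matched RefSeq by Entrez number without a change of symbol.

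Each gene was represented by its single-gene probe set of highest mean log2(value + 16). The upper 60% of 18193 genes by that mean were tested in limma (version 3.58.1, R 4.3.3) with 4 group means, a variance trend and 8 residual degrees of freedom. The 7 contrasts were banding in each genotype and on average, knockout against wild type in each operation and on average, and the interaction. Tests were two-sided, with Benjamini-Hochberg adjustment over all tested genes. The fit was tested on simulated data with independent noise and, for each gene, the same spread in every group. A wider group or a deviating array was not simulated.

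The members, lists and tests were chosen with earlier results of these data known. Named are all members that passed, the 5 of smallest p in each contrast and a list of members of cardiac interest; further members were named after their values were seen. Alternatives were the filter, pseudocount, scaling, trend, array weights, probe set summary, groups fitted, replicate block and arrays left out. Choosing probe sets by linear mean was added after seeing the data.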

Additional observations from a re-analysis of the deposited data

How the results depend on the processing

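The titles number the replicates alike in every group without saying that numbers pair hearts. Deviations from the group means correlated at -0.28 to 0.23 over the 18 pairs of equal number and at -0.22 to 0.28 over the 36 others, and an array correlated best with its own number in 10 of 36 comparisons with another group, so the numbers were not taken as pairs. Counts are of members passing, except where all genes are named. For banding in knockout hearts 7 passed, and the count was 4 without a filter, 4 with the upper 40% of genes, where 20 members were tested, 15 with array weights, 1 with the knockout groups alone and 12 without knockout banded 1 and wild-type banded 3. It ranged from 0 to 13 with single arrays left out. The Apln and airway values given above do not set wild-type banded 3 apart, and no reason for leaving it out is stated here. The other settings gave 5 to 7, and of these the replicate block gave 5, without Adamts7 and Mmp14. For the average over genotypes 2 passed, and the count was 1 without a filter, with the upper 40%, with pseudocount 1, with eBayes without trend and with the replicate block, 7 with array weights, and 8 without those 2 arrays. Single arrays left out gave 0 to 11. For knockout against wild type in banded hearts 0 passed, against 4 with array weights, 3 without those 2 arrays and 0 to 5 with single arrays left out. For the interaction 0 passed, against 1 without those 2 arrays, Adamtsl2, and 0 to 1 with single arrays left out. Among all genes 416 passed for banding in knockouts, against 9 to 1441 with single arrays left out, 212 without a filter, 1870 with array weights, 74 with the knockout groups alone and 237 with the replicate block. For the average 175 passed, against 5 to 996 with single arrays left out, 77 without a filter, 769 with array weights, 88 without trend and 60 with the block. For knockout against wild type no gene passed, against 581 in banded hearts with array weights, and 667 in banded hearts and 141 averaged over surgery without knockout banded 1; for the interaction 208 passed without it. All-gene numbers are not given here for the fits without knockout banded 1 and wild-type banded 3, with the upper 40% or with pseudocount 1. The members' counts in those settings therefore cannot be read against all genes. The members' counts of 0 for banding in wild type, for knockout against wild type in sham and averaged over surgery stayed at 0 in every setting run. The 7 calls kept their sign in every setting in which the gene was tested: Adamtsl2 ranged from 1.20 to 1.80, Mmp14 from 0.84 to 1.27 and Adamts7 from -1.53 to -0.72. The causes of these changes were not tested, beyond the smaller number of arrays or genes. Under quantile and median scaling the median of all genes stayed between -0.02 and 0.06. Signal near background limits the 37 members below the filter, which were tested only in alternative settings, and 3 arrays a group limit all others.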
